A study of Mus musculus with 18 samples.

Results

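Vascular smooth muscle cells contract through a set of proteins that few other cells make in quantity, and 10 genes of that set were read here in RNA of immune cells sorted from atherosclerotic arteries. The genes are Acta2, Myh11, Tagln, Cnn1, Myl9, Mylk, Des, Smtn, Lmod1 and Actg2, taken by symbol from the 23337 genes counted. All 10 were found, and all 10 passed the filter on low counts that left 17143 genes for testing. Smooth muscle myosin pulls on smooth muscle actin once its light chain has been phosphorylated, and other proteins of the set load, cap or anchor these filaments. The genes are driven by serum response factor with its coactivator myocardin, and smooth muscle cells of atherosclerotic lesions are known to lose their transcripts while they take up features of fibroblasts or macrophages. The question put to the 18 libraries was whether transcripts of these genes go with those of fibroblasts or with those of macrophages.

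Aortas and carotid arteries were taken from 7-month-old Apoe-/- Cx3cr1GFP Cd11cYFP mice of both sexes (C57BL/6 background) that had spent 5 months on Western Diet. All groups share the loss of Apoe, both reporter alleles and the diet. Live cells that stained for the leukocyte surface protein CD45 were sorted by reporter into GFP-YFP+ cells (YFP, n = 5), GFP+YFP+ cells (DP, n = 4), GFP+YFP- cells (GFP, n = 6) and GFP-YFP- cells (DN, n = 3). Expression of Cx3cr1, which encodes a chemokine receptor of monocytes and macrophages, is read from GFP, and YFP marks Cd11c, an integrin chain encoded by Itgax. Whether each replicate is a mouse of its own or a pool is not given, so a p-value here reads only how far libraries of a subset spread, and that spread may be technical.

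Some libraries went against their labels in the transcripts of the reporter genes. The libraries labelled DP 4 and DP 5 had Cx3cr1 at 9.43 and 0.427 CPM (counts scaled to library size) and Itgax at 38.6 and 47.8 CPM, below every GFP library in both genes. The libraries labelled DN 3 and DN 6 had Cx3cr1 at 142 and 134 CPM and Itgax at 332 and 297 CPM, while DN 1 had 4.09 and 11.4 CPM. The library labelled YFP 6 had Cx3cr1 at 104 CPM and Itgax at 89.6 CPM, from 35 and 30 counts, which puts Cx3cr1 within and Itgax below the range of the GFP libraries, and its total of 289166 counts is the lowest. The other 17 totals ran between 9790946 and 27742113 counts. The library labelled YFP 1 had Itgax at 175 CPM, within the 107 to 191 CPM of the GFP libraries. Its Cx3cr1, at 0.930 CPM, was below every GFP library. Every result on DP, DN or YFP rests in part on these libraries, and values without DP 4, DP 5, DN 3 or DN 6 are given beside the main ones. All 8 leukocyte genes and all 14 macrophage genes looked up had counts in all 18 libraries, whatever their label.

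Of the members, 7 had a promoter in the RefSeq table used (GRCm38.p6), which gave the 250 bases before the gene start. They were searched on both strands for the CArG box, the site of serum response factor, which is CC, then 6 bases that are each A or T, then GG. The box was also searched with 1 other base among those 6. Only Myl9 held an exact box, against 1.467% of 32851 promoters, and Acta2 and Myl9 each had 2 boxes when 1 other base was allowed, against 8.593% of promoters with at least 1. These 2 promoters are printed because both genes stand out in the values below, on mm10 coordinates chr2:156775214-156775463 (plus strand, Myl9) and chr19:34255374-34255623 (minus strand, Acta2), with the boxes in capitals.

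Myl9: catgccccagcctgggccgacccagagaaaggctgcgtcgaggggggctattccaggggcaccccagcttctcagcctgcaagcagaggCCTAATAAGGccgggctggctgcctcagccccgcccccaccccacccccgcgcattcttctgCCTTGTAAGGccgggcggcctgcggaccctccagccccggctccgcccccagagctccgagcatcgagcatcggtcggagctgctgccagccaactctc

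Acta2: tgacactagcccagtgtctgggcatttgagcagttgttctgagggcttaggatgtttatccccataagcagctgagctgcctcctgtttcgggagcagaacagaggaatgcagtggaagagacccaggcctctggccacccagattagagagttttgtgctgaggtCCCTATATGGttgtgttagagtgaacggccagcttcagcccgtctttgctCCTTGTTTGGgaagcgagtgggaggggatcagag

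In Myl9 the exact box CCTAATAAGG began 161 bases before the gene start and CCTTGTAAGG began 99 bases before it. In Acta2 the boxes CCCTATATGG and CCTTGTTTGG began 84 and 34 bases before it. The windows of Des, Lmod1, Cnn1, Smtn and Mylk held neither form, which says only that these letters are not in these windows.

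Myl9, on chromosome 2, encodes the regulatory light chain whose phosphorylation switches smooth muscle myosin on. It had 77.1, 35.8, 36.0, 82.9 and 102 CPM in YFP libraries 1, 3, 4, 5 and 6, and 7.82, 55.2, 539 and 1548 CPM in DP libraries 1, 2, 4 and 5. GFP libraries had 15.8 to 53.7 CPM with a median of 34.7, and DN libraries 1, 3 and 6 had 51.9, 11.1 and 27.0 CPM. DP 4 and DP 5 thus stood above all other libraries, while DP 1 was the lowest of the 18. DP 4 and DP 5 together held 75.0% of all Myl9 CPM of the series.

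Acta2, on chromosome 19, encodes smooth muscle actin, the thin filament protein. It had 251, 58.5, 59.4, 290 and 74.6 CPM in YFP libraries 1, 3, 4, 5 and 6, and 38.1, 156, 1104 and 1823 CPM in DP libraries 1, 2, 4 and 5. GFP libraries had 30.3 to 161 CPM with a median of 77.8, and DN libraries 1, 3 and 6 had 147, 29.5 and 55.3 CPM. The 4 subsets overlapped, with DP 4 and DP 5 again highest and YFP 5 and YFP 1 next. YFP 5 and DP 5 had the lowest TMM factors, 0.445 and 0.533 against 0.862 to 1.75 elsewhere, which raises their CPM. Counts of Acta2 were 26585 in DP 4, 17087 in DP 5, 10238 in YFP 1 and 2907 in YFP 5. The totals of these libraries were 19436572, 17601365, 27742113 and 22549117 counts. Relative to total counts DP 4 lay above DP 5, and YFP 1 and DN 1 above YFP 5, so the order by CPM rests on the scaling. Of 1986 stretches of 50 bases of its transcript, 7 also occur in other genes, among them Actg1, which is far more abundant. Only exact matches were looked for, and how reads that match several genes were counted is not given in the sources used here.

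Tagln, on chromosome 9, encodes transgelin, an actin-binding protein of the thin filament. It had 53.1, 12.4, 13.1, 1.10 and 29.9 CPM in YFP libraries 1, 3, 4, 5 and 6, and 11.5, 47.3, 332 and 744 CPM in DP libraries 1, 2, 4 and 5. GFP libraries had 8.78 to 55.6 CPM with a median of 25.1, and DN libraries 1, 3 and 6 had 51.4, 10.5 and 14.1 CPM. YFP 5, which by CPM came next to DP 5 and DP 4 in Acta2, was the lowest of all in Tagln. An antisense gene, Gm48529, covers 62.4% of the exon length of Tagln, and without strand information reads of the 2 genes cannot be told apart.

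Cnn1, on chromosome 9, encodes calponin, which binds actin and damps the myosin ATPase. It had 23.5, 5.85, 8.63, 101 and 17.9 CPM in YFP libraries 1, 3, 4, 5 and 6, and 4.99, 20.3, 152 and 122 CPM in DP libraries 1, 2, 4 and 5. GFP libraries had 7.18 to 30.3 CPM with a median of 13.6, and DN libraries 1, 3 and 6 had 20.0, 5.64 and 6.53 CPM. Here YFP 5 stood with DP 4 and DP 5 by CPM, well apart from the other 15 libraries. That gap rests in part on its low TMM factor, with 1016 counts in YFP 5 against 958 in YFP 1.

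Mylk, on chromosome 16, encodes the kinase that phosphorylates the light chain. It had 18.3, 8.79, 4.97, 139 and 5.97 CPM in YFP libraries 1, 3, 4, 5 and 6, and 3.66, 11.2, 65.8 and 50.6 CPM in DP libraries 1, 2, 4 and 5. GFP libraries had 3.81 to 26.3 CPM with a median of 11.0, and DN libraries 1, 3 and 6 had 10.6, 7.77 and 2.94 CPM. The 3 highest libraries were those of Cnn1, with YFP 5 now first by CPM, on 1389 counts against 1583 in DP 4.

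Myh11, on chromosome 16, encodes the smooth muscle myosin heavy chain, the motor itself. It had 126, 32.9, 8.50, 0.897 and 26.9 CPM in YFP libraries 1, 3, 4, 5 and 6, and 27.6, 38.4, 345 and 68.9 CPM in DP libraries 1, 2, 4 and 5. GFP libraries had 2.61 to 86.1 CPM with a median of 33.2, and DN libraries 1, 3 and 6 had 68.3, 29.2 and 5.58 CPM. DP 4 was highest and YFP 1 second, whereas DP 5 lay below GFP 1 and YFP 5 had the fewest, with 9 counts. Of 6500 stretches of 50 bases of its transcript, 26 also occur in other genes, the nonmuscle myosin genes Myh9 and Myh10.

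Smtn, on chromosome 11, encodes smoothelin, a filament-bound protein of contractile smooth muscle cells. It had 96.2, 28.8, 21.0, 0.997 and 23.9 CPM in YFP libraries 1, 3, 4, 5 and 6, and 30.8, 19.2, 323 and 51.1 CPM in DP libraries 1, 2, 4 and 5. GFP libraries had 15.2 to 37.7 CPM with a median of 26.2, and DN libraries 1, 3 and 6 had 34.1, 23.3 and 12.8 CPM. DP 4 and YFP 1 led as for Myh11, and outside DP 4, DP 5, YFP 1 and YFP 5 the gene stayed between 12.8 and 37.7 CPM.

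The 3 remaining members were scarce. Des, on chromosome 1, encodes the intermediate filament protein desmin and had at most 13.4 CPM, in DP 4, with 11.2 CPM in YFP 1 and no count in YFP 5 and YFP 6. Lmod1, on chromosome 1, encodes leiomodin, which starts actin filaments, and reached 26.0 CPM in DP 4, against 0.640 CPM in DP 5, 5.97 CPM or less elsewhere and no count in YFP 5. Actg2, on chromosome 6, encodes the actin that prevails in smooth muscle of the gut, and reached 26.2 CPM in DP 4 with no count in DP 5. The counts behind the scarce members were few, with 6 for Lmod1 and 3 for Des in DP 5. In YFP 6 they were 2 for Lmod1 and 3 for Actg2, so its 5.97 and 8.96 CPM carry a wide counting error.

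**Figure D1:**
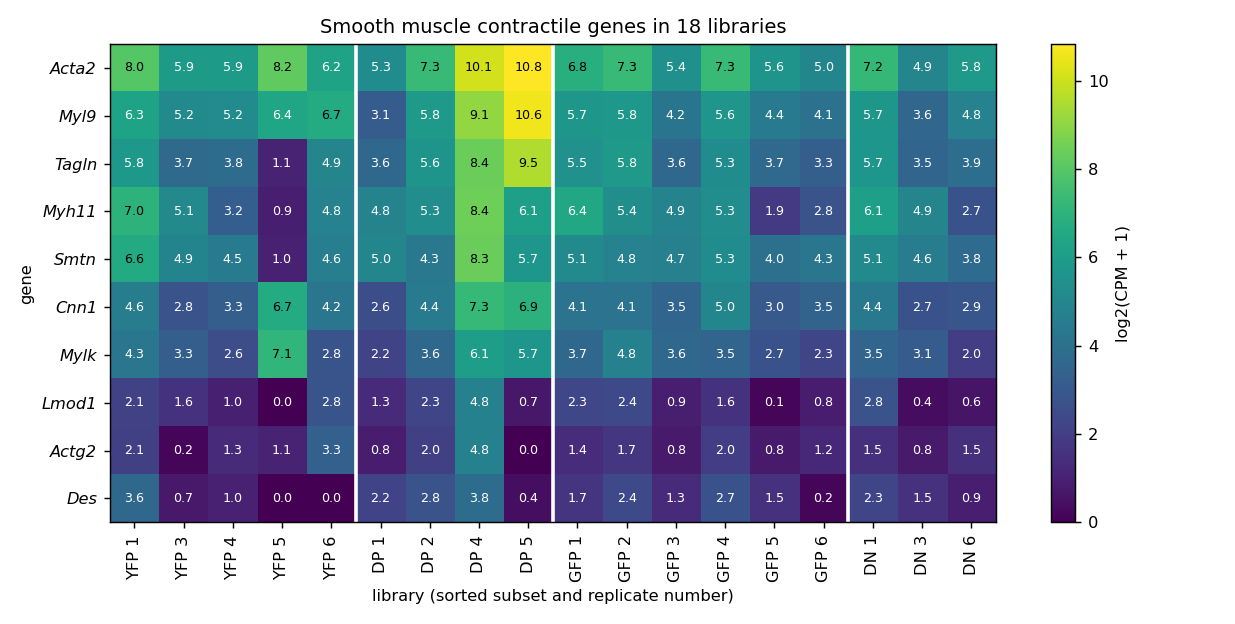
Colour and printed number give log2(CPM + 1) of the 10 genes (rows) in each of 18 libraries (columns, in the order YFP, DP, GFP, DN, divided by white lines). DP 4 is high in every gene, DP 5 in Acta2, Myl9, Tagln, Cnn1 and Mylk, and YFP 5 in Acta2, Cnn1 and Mylk with Tagln, Myh11 and Smtn at about 1 CPM.

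**Figure D2:**
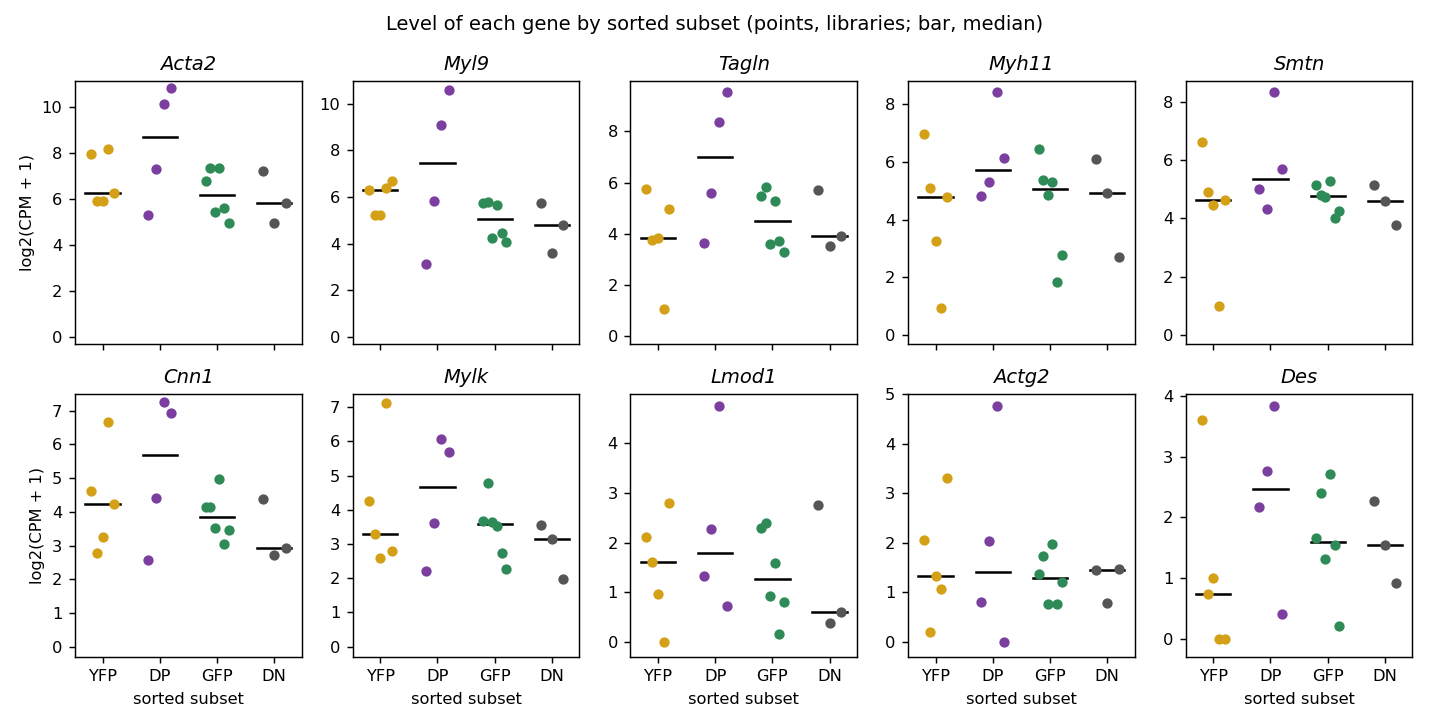
Each panel plots log2(CPM + 1) of 1 gene by sorted subset (x axis), with 1 point per library and a bar at the median. The YFP, DP, GFP and DN libraries overlap in all 10 genes, and 2 DP points lie far above the other 2 in Acta2, Myl9, Tagln, Cnn1 and Mylk.

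The libraries with high levels thus differed in which members they held. Per kilobase of exon, DP 4 had 503 CPM of Acta2, 464 of Myl9, 167 of Tagln, 73.8 of Smtn, 55.7 of Cnn1, 45.4 of Myh11, 16.8 of Actg2, 6.58 of Lmod1, 5.84 of Mylk and 3.56 of Des. On the same scale DP 5 had 1332 CPM of Myl9, 830 of Acta2, 374 of Tagln and 44.6 of Cnn1, but 11.7 of Smtn, 9.07 of Myh11 and 0.162 of Lmod1. YFP 5 had 132 CPM per kilobase of Acta2, 71.3 of Myl9, 37.0 of Cnn1 and 12.3 of Mylk, with Tagln, Smtn and Myh11 at 0.552, 0.228 and 0.118. DP 4 was the only library of the 3 in which no member was at 0.

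The ratio of Acta2 counts to those of another member shows the same within each library, free of scaling between libraries. Acta2 to Myl9 stayed between 0.735 and 4.87 over the 18 libraries, and Acta2 to Cnn1 between 2.86 and 14.9. Acta2 to Myh11 ran between 1.01 in DN 3 and 323 in YFP 5, with a median of 3.60. Acta2 to Tagln ran between 2.45 in DP 5 and 264 in YFP 5, and Acta2 to Smtn between 1.24 in DP 1 and 291 in YFP 5. Without YFP 5 the bounds were 2.45 to 4.72 for Tagln, 0.735 to 4.87 for Myl9, 3.02 to 14.9 for Cnn1, 1.01 to 26.5 for Myh11 and 1.24 to 35.7 for Smtn, so the wide span of Tagln rests on that library alone.

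Across libraries, Spearman's rho of the 45 pairs of members lay between 0.10 (Myl9 with Des) and 0.92 (Acta2 with Myl9), with a median of 0.51, and 23 pairs were over 0.5. The next highest were Acta2 with Cnn1 at 0.90, Myh11 with Smtn at 0.87 and Myl9 with Cnn1 at 0.87. These are descriptions over 18 libraries that share a scaling to CPM, and no pair had a rho under 0.

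The other genes of contraction were read from a list of 25, of which 24 passed the filter. Its most abundant genes are not confined to muscle: Flna, the actin crosslinker filamin A, had 212 to 2437 CPM, Rhoa, the small GTPase that governs contraction, 218 to 1351 CPM, Pdlim7, a LIM protein of actin filaments, 50.6 to 198 CPM, and Tpm1, a tropomyosin, 31.9 to 516 CPM. Pdlim7 was highest in DP 5 and Tpm1 in YFP 5. Over 18 libraries the mean level of this list had a rho of 0.83 with that of the members. The cytoplasmic actins Actb and Actg1 were present in all libraries at 1227 to 6405 and 2241 to 11214 CPM, and their mean level had a rho of -0.37 with that of the members. Myocd, the gene of myocardin, had 4.57 CPM in DP 4 (110 counts), 3.14 CPM in GFP 2 (46 counts), 2.91 CPM in DN 1 (126 counts), 1.96 CPM in GFP 1 (40 counts) and 1.71 CPM in YFP 1 (70 counts). It had 0.320 CPM in DP 5 (3 counts) and none in YFP 5 or DN 6, and its highest value, 11.9 CPM in YFP 6, comes from 4 counts. Srf, the gene of serum response factor, had 17.7 CPM in DP 4 and 19.0 CPM in DP 5, near the low end of its range of 17.7 to 75.2 CPM, and its highest library was YFP 5.

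Outside the set, 9618 genes averaged 5 CPM or more, and among them those most like the mean level of the members over 18 libraries were Hspb7 (rho 0.91), H2-Q4 (0.85), Itga8 (0.85), Vldlr (0.84), Gimap5 (0.84), Ncam1 (0.84), Tesc (0.84) and Rasd1 (0.84). Hspb7 encodes a small heat shock protein known from heart muscle, and Itga8 an integrin chain known from smooth muscle and mesangial cells. They were chosen for this likeness. Their rho with the fibroblast level described next lay between 0.30 and 0.49, and with the macrophage level described after it between -0.79 and -0.56. Itga8 is also in the list of other genes of contraction.

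Fibroblast transcripts were summarised as the mean log2(CPM + 1) of 14 genes, among which Col3a1, Dcn, Col1a2 and Col1a1 were the most abundant. That level is highest in DP 4 at 8.41 and YFP 1 at 8.40, was 6.44 in DP 5 and only 3.95 in YFP 5, and ran between 3.25 and 5.14 in GFP libraries. Every member had a positive rho with it, between 0.02 for Cnn1 and 0.51 for Smtn, with a median of 0.20 against 0.07 over all genes. Yet no member was called by the permutation test with adjustment over all genes outside the list (adjusted p under 0.05), where 1.38% of genes were called. By unadjusted p under 0.05, 1 member and 1950 genes passed, and with Pearson's r no member was called either, where 2.31% of genes were.

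Smtn and Myh11 had the highest values with the fibroblast level. For Smtn rho was 0.51 (permutation p = 0.0325, adjusted p = 0.370) and Pearson's r 0.65 (permutation p = 0.00270, adjusted p = 0.0886), and without GFP 6 and DP 4, which lie farthest from the median, r was 0.55. For Myh11 rho was 0.47 (permutation p = 0.0533, adjusted p = 0.446) and r 0.61 (permutation p = 0.00777, adjusted p = 0.182), with r of 0.44 without the same libraries. For Acta2 rho was 0.16 and for Myl9 0.15, and both turned to -0.14 and -0.12 without GFP 6 and DP 4. By CPM, YFP 5 joined high Acta2 and Myl9 to a fibroblast level of 3.95. DP 5, by CPM highest in both genes, had a level of 6.44, above every GFP library but below DP 4, YFP 1, YFP 4, DN 3 and DP 1. The low TMM factors of YFP 5 and DP 5 raise their CPM, as given for Acta2 above.

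Macrophage transcripts were summarised in the same way from 14 genes, with Lyz2, C1qb, Cd14 and Ctss the most abundant. Their level was 11.4 in YFP 5 and 10.4 in DP 5, 8.66 in DP 4, 8.36 in YFP 1 and only 5.93 in DN 1, and ran between 9.61 and 10.7 in GFP libraries. Every member had a negative rho with it, between -0.12 for Cnn1 and -0.78 for Lmod1, with a median of -0.49 against -0.28 over all genes. Called negative were 5 members, Lmod1, Myh11, Smtn, Des and Tagln, by the permutation test with the same adjustment, which called 30.6% of all genes negative. The share of members is thus not far above that of genes at large.

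Lmod1 had a rho of -0.78 (permutation p = 0.000260, adjusted p = 0.00264) and an r of -0.63 (permutation p = 0.0118, adjusted p = 0.0863), and Myh11 a rho of -0.78 (permutation p = 0.000280, adjusted p = 0.00278) and an r of -0.64 (permutation p = 0.00411, adjusted p = 0.0445). Smtn and Des both had a rho of -0.67 (adjusted permutation p = 0.0124 and 0.0123), with r of -0.54 and -0.56 (adjusted permutation p = 0.192 and 0.0826). Tagln had a rho of -0.55 (permutation p = 0.0197, adjusted p = 0.0456) and an r of -0.41 (adjusted permutation p = 0.241). By Pearson's r only Myh11 was called, as were 5.43% of all genes in the negative direction. Without YFP 1 and DN 1, farthest from the median, r was -0.85 for Lmod1, -0.87 for Myh11, -0.85 for Smtn, -0.71 for Des and -0.59 for Tagln. In all, 20 such relations were computed for the members, each with both coefficients.

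Lmod1, Myh11, Smtn and Des stayed called whichever single library was left out. Tagln lost its call without any 1 of 12 of the libraries, with a rho between -0.69 and -0.47 over all 18 omissions, and Des lost its call when DP 4, DP 5, DN 3 and DN 6 were left out together (rho -0.57, adjusted permutation p = 0.0745). Acta2 (rho -0.21), Myl9 (-0.22), Cnn1 (-0.12), Mylk (-0.26) and Actg2 (-0.44) were called in none of these.

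**Figure D3:**
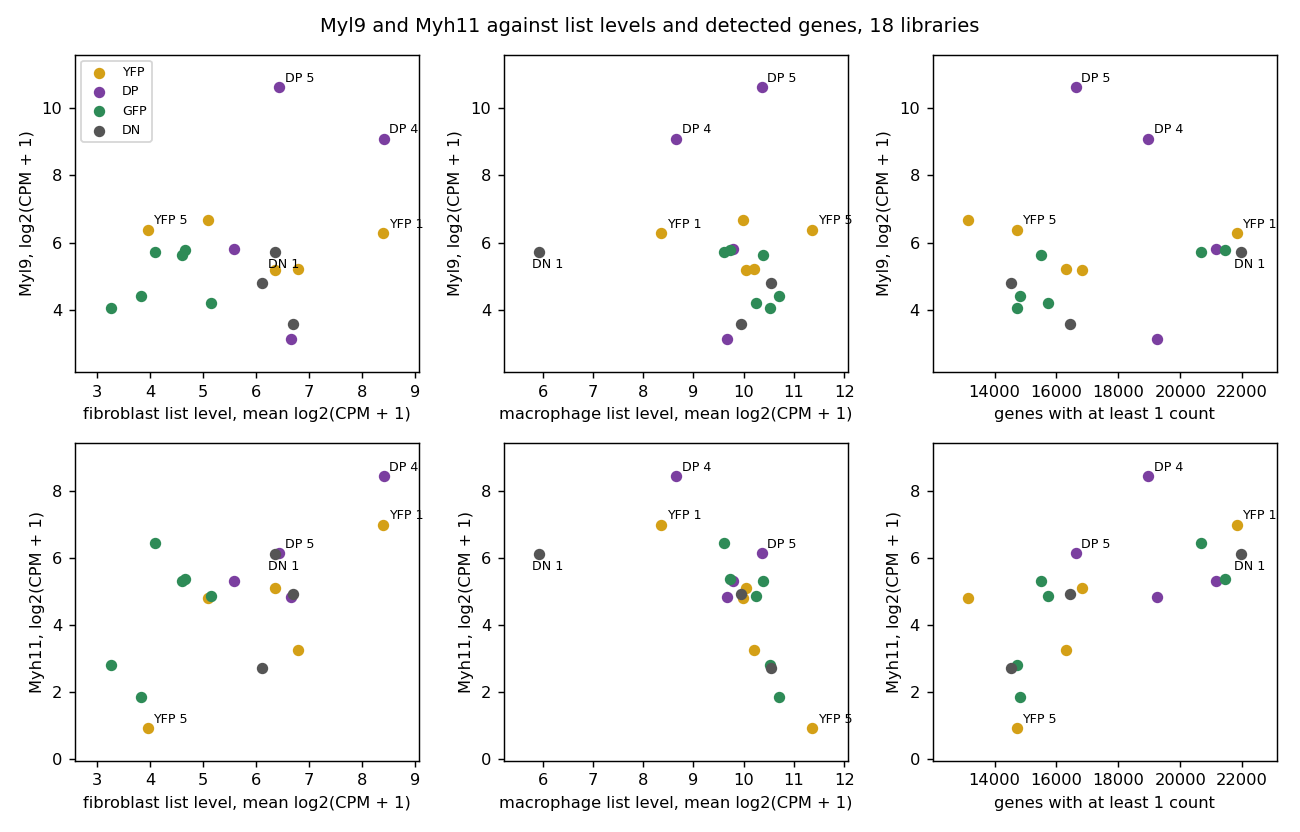
Myl9 (top row) and Myh11 (bottom row), as log2(CPM + 1), against the fibroblast level, the macrophage level (both mean log2(CPM + 1)) and the number of genes with at least 1 count, with 1 point per library coloured by subset (YFP, DP, GFP, DN) and 5 libraries named. Myh11 is highest in DP 4 and YFP 1, where the macrophage level is 8.66 and 8.36, and lowest in YFP 5, where it is 11.4, while Myl9 is highest in DP 5, where the macrophage level is 10.4.

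Both levels were themselves related. The fibroblast level had a rho of -0.56 with the macrophage level (permutation p = 0.0168, adjusted over 3 relations 0.0251; Pearson's r -0.50, permutation p = 0.0290, adjusted 0.0435, and r -0.44 without the 2 libraries farthest from the median). The number of genes with at least 1 count had a rho of -0.84 with the macrophage level (permutation p = 6.00e-05, adjusted 0.000180; r -0.71 with the same p-values, and -0.65 without the 2 farthest), so libraries rich in macrophage transcripts held fewer kinds of transcript. Members differed in their relation to that number. Not called were Lmod1 (rho 0.55), Mylk (0.39), Acta2 (0.32), Myl9 (0.18), Actg2 (0.17) and Cnn1 (0.15), with adjusted permutation p of 0.0547 or more. Myh11 (rho 0.78), Des (0.72), Smtn (0.61) and Tagln (0.58) were called positive, with adjusted permutation p of 0.00175, 0.00554, 0.0249 and 0.0371, where 26.2% of all genes were called positive. The same genes had Pearson's r of 0.64, 0.72, 0.44 and 0.42, of which Myh11 and Des were called (adjusted permutation p = 0.0169 and 0.00571, where 21.9% of all genes were called positive), and r of 0.58, 0.67, 0.38 and 0.40 without YFP 1 and DN 1. The part that library complexity has in the relations with the macrophage level was not tested.

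**Figure D4:**
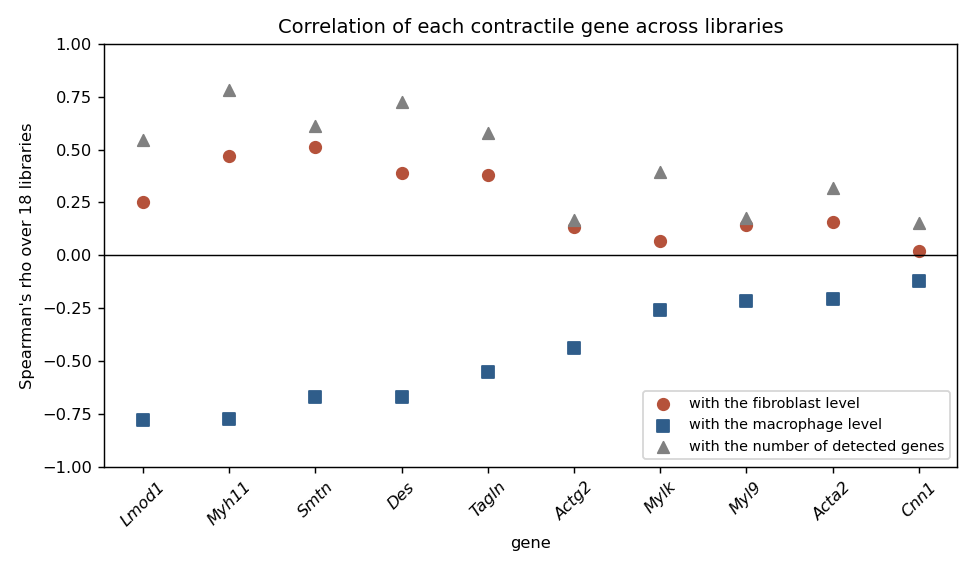
Spearman's rho over 18 libraries (y axis) of each gene (x axis, ordered by its rho with the macrophage level) with the fibroblast level (circles), the macrophage level (squares) and the number of detected genes (triangles). All circles lie above all squares, and the genes with the lowest squares, Lmod1, Myh11, Smtn, Des and Tagln, have triangles between 0.55 and 0.78.

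All 10 members had a higher rho with the fibroblast than with the macrophage level over 18 libraries, as did 62.1% of the 17115 genes outside both lists. The number was 9 without YFP 1, 9 without DP 4, 9 without both DP 4 and DP 5, and 9 when DN 3 and DN 6 were dropped as well. Between 19245 and 21972 genes were detected in libraries numbered 1 and 2, but 13150 to 18961 in libraries numbered 3 to 6, so the relations were also read within each. Among the 6 libraries numbered 1 and 2, rho of Myh11 with the macrophage level was -0.66 and that of Smtn -0.94, but that of Lmod1 was -0.26, of Tagln -0.09 and of Des 0.14. Among the 12 numbered 3 to 6 these were -0.71 (Myh11), -0.66 (Smtn), -0.69 (Lmod1), -0.36 (Tagln) and -0.33 (Des). With the fibroblast level, Myh11 had 0.03 and 0.61, Smtn 0.49 and 0.51, and Lmod1 -0.54 and 0.38 within numbers 1 and 2 and within numbers 3 to 6. The rho with the fibroblast level was the higher one for 8 of 10 members within numbers 1 and 2 and for 9 of 10 within numbers 3 to 6, and no test was made within sets.

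With both levels in 1 edgeR quasi-likelihood fit, each slope reads the change per SD of one level at a fixed value of the other. On the fibroblast level the slopes of the members were all positive, between 0.21 (Lmod1) and 1.52 (Myl9) on the log2 scale, against a median of -0.03 over all genes. None was called, where 0.642% of all genes were, and 4 members and 937 genes had an unadjusted p under 0.05. Myl9 had a slope of 1.52 ± 0.51 (SE, adjusted p = 0.333), Tagln 1.4 ± 0.51 (adjusted p = 0.452) and Acta2 1.14 ± 0.42 (adjusted p = 0.463). No member was called with any 1 library left out. With YFP 6 in place of GFP 3 as the library to which edgeR's TMM scaling refers, a setting added after seeing the data that called 1.63% of all genes, 3 were called, Myl9 at 1.78 (adjusted p = 0.0202), Acta2 at 1.49 (adjusted p = 0.0320) and Tagln at 1.69 (adjusted p = 0.0481).

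On the macrophage level the slopes had both signs. They were negative for Lmod1 (-1.70 ± 0.72, SE, adjusted p = 0.192), Myh11 (-1.10 ± 0.51, adjusted p = 0.238), Des, Smtn and Actg2 and positive for Myl9 (0.73 ± 0.46, adjusted p = 0.373), Mylk, Acta2, Cnn1 and Tagln. None was called by edgeR, where 5% of all genes were, and 2 members and 3342 genes had an unadjusted p under 0.05. Without DN 1, the library poorest in macrophage transcripts, 20% of all genes and 4 members were called. These were Lmod1 at -2.21, Des at -1.76, Myh11 at -1.49 and Smtn at -1.06 (edgeR adjusted p between 0.00650 and 0.0406). The SD is taken anew over the libraries of each fit, so the sizes of these slopes are not on the scale of those with DN 1.

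Between subsets, DP against GFP was the one pair in which edgeR called any gene (adjusted p under 0.05, 1 mean per subset over 18 libraries). There 34 genes or 0.198% of those tested were called, all higher in DP, and 1 of the 10 members was among them. That member is Myl9, which averaged 537 ± 715 CPM in DP libraries and 34.7 ± 18.4 CPM in GFP libraries (SD, n = 4 and 6). On the log2 scale DP was higher by 3.95 with an SE of 0.83 (edgeR adjusted p = 0.0457). Its SD in DP is above its mean, since DP 1 at 7.82 CPM lies below all 6 GFP libraries and DP 2 at 55.2 CPM just above them. In bulk samples, fewer cells of a type and less RNA per cell cannot be told apart.

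The other 9 members did not pass. Acta2 averaged 780 ± 843 CPM in DP and 91.7 ± 60.0 CPM in GFP libraries, or 3.09 ± 0.77 as a log2 fold change (SE, edgeR adjusted p = 0.0814). Tagln averaged 284 ± 339 CPM in DP and 28.2 ± 20.1 CPM in GFP libraries, or 3.33 ± 0.89 on that scale (adjusted p = 0.110). Cnn1 averaged 74.9 ± 73.2 CPM in DP and 15.2 ± 8.31 CPM in GFP libraries, with 2.30 ± 0.81 (adjusted p = 0.351). The log2 fold changes were 2.24 for Actg2, 2.01 for Smtn, 2.01 for Lmod1, 1.84 for Myh11, 1.5 for Mylk and 1.15 for Des, with SE between 0.79 and 1.13 and adjusted p between 0.476 and 1.0. All 10 were positive, with a median of 2.13 against 0.20 over all genes, and 5 members and 1172 genes had an unadjusted p under 0.05. Of the 24 other genes of contraction tested, all had positive values (median 1.21) and none was called by edgeR, with 8 at an unadjusted p under 0.05. Tpm2, a tropomyosin picked here for its small p, had 139 ± 164 CPM in DP and 12.1 ± 5.23 CPM in GFP libraries (log2 fold change 3.53 ± 0.82, adjusted p = 0.0650). Srf had 24.6 ± 7.93 CPM in DP and 25.6 ± 3.65 CPM in GFP libraries (log2 fold change -0.06 ± 0.53, adjusted p = 1.0), and Myocd had 1.61 ± 1.99 CPM in DP and 1.11 ± 1.21 CPM in GFP libraries (0.55 ± 1.35, adjusted p = 1.0).

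The DP values rested on DP 4 and DP 5. The median of 2.13 over the members was 0.67 without DP 4 and 0.02 without both. Without both, the value of Myl9 was -0.14 and no gene was called, and it was the same with DN 3 and DN 6 dropped as well, again with no gene called. With DP libraries 1 and 2 against GFP libraries 1 and 2, in the fit of libraries numbered 1 and 2, it was -0.74 (adjusted p = 1.0), and 9 of the 10 members had negative values, although 216 genes were called, 58 of them higher in DP. With DP 4 and DP 5 against GFP 3 to 6 it was 5.34 (adjusted p = 0.00330), Acta2 and Tagln were called as well, and 215 genes were called in all, 193 of them higher in DP. A block on the replicate number was also fitted, as the rule on same-numbered libraries described below asks for in this pair. With it the value of Myl9 was 2.96 (edgeR adjusted p = 0.929), and neither Myl9 nor any other gene was called. Of single libraries, leaving out DP 4, DP 5, YFP 4, YFP 6, DN 3, DN 6 or any 1 of the 6 GFP libraries ended the call of Myl9 (adjusted p between 0.0514 and 0.475), and the log2 fold change without DP 5 was 2.53.

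**Figure D5:**
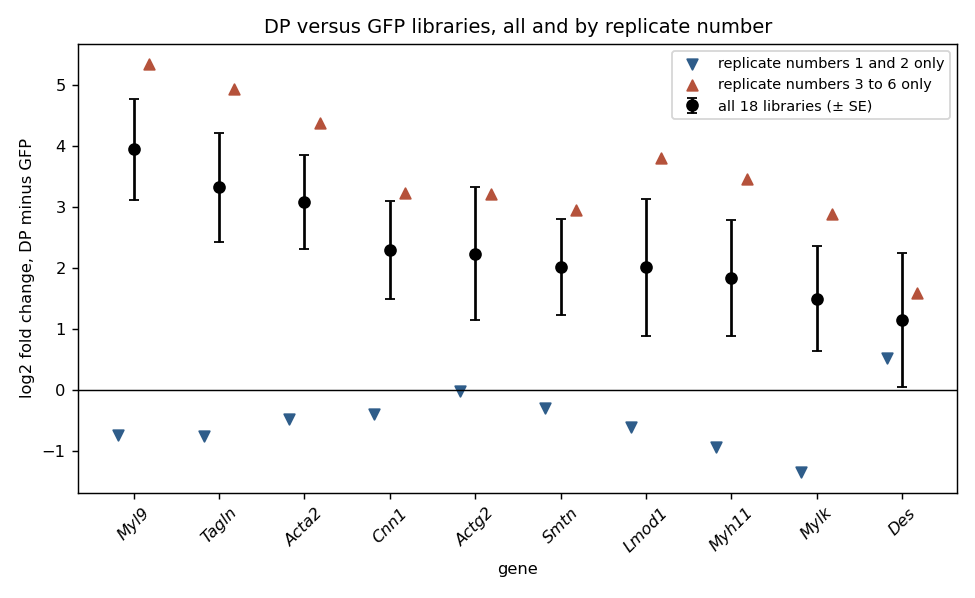
Log2 fold change (DP minus GFP, y axis) of each gene (x axis) over all 18 libraries (circles, bars are SE), among libraries numbered 1 and 2 (downward triangles) and among those numbered 3 to 6 (upward triangles). The upward triangles are all above 0, between 1.59 and 5.34, while 9 of the 10 downward triangles lie below it.

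The tools did not give the same calls. DESeq2 called Myl9, Acta2 and Tagln among 362 genes. The scaling moved the whole table, with a median over all genes of 0.38 for DESeq2 size factors and 0.48 with YFP 6 as the TMM reference, against 0.20 in the fit reported here, and Myl9 at 4.29 and 4.50. The limma voom fit with sample weights called no member among 3445 genes and put Myl9 at -0.033, with weights of 0.443 for DP 4 and 0.0655 for DP 5, against 2.75 and 2.69 for DP 1 and DP 2.

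Markers of several other cells were high in DP 4 or DP 5. In DP 4 the 14 fibroblast genes summed to 12983 CPM, the 8 pericyte genes to 383 CPM, the 10 endothelial genes to 254 CPM and the 10 neutrophil genes to 2278 CPM, with none of these genes at 0. In DP 5 the sums were 6700 CPM for fibroblast genes, 10.3 CPM for pericyte genes, 98.0 CPM for endothelial genes and 38995 CPM for neutrophil genes, with 2 endothelial genes and 1 pericyte gene at 0. Dcn made 4439 CPM of the fibroblast sum of DP 5. There Col1a1 (38.3 CPM), Col3a1 (61.8), Fbln1 (29.8) and Fbln2 (0.640) lay within the range of the GFP libraries. Pdgfra (0.427 CPM) lay below that range, and the other genes of the fibroblast list were above every GFP library. The GFP libraries had 280 to 1182 CPM of fibroblast, 30.6 to 153 CPM of pericyte, 22.8 to 65.1 CPM of endothelial and 163 to 440 CPM of neutrophil genes. As a mean log2(CPM + 1), however, the endothelial level of DP 5 was 1.32, within the 1.16 to 2.30 of the GFP libraries. That of DP 4 was 4.23. The endothelial sum of DP 5 thus does not stand for the list as a whole. The 8 platelet genes summed to 4093 CPM in DP 5 and 1434 CPM in YFP 5, against 27.9 to 543 CPM elsewhere. Of these 2 sums Pf4 alone made 4079 and 1250 CPM. Itga2b and Gp1bb both had 0.427 CPM in DP 5, and 103 and 63.3 CPM in YFP 5. At 0 were 1 platelet gene in DP 5 and 2 in YFP 5. Between DP and GFP, all 14 fibroblast genes had positive log2 fold changes and 3 of them, Dcn, Mfap5 and Pcolce, were called higher in DP by edgeR. The part of other cells in the levels of the contractile genes was not tested.

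YFP 1 was near DP 4 in some of these sums, with 11879 CPM of fibroblast, 345 CPM of pericyte and 337 CPM of endothelial genes, none of these genes being at 0. It had the lowest neutrophil sum of all, 104 CPM. YFP 5 had 1138 CPM of fibroblast genes, 6.78 CPM of pericyte genes, 203 CPM of endothelial genes and the highest sum of macrophage genes, 154637 CPM, against 2290 CPM in DN 1. In YFP 5, 1 fibroblast gene, 1 pericyte gene and 3 endothelial genes were at 0. Pecam1 made 90.4 CPM and Vwf 47.4 CPM of its endothelial sum, and its mean endothelial level, 1.99, lay within the range of the GFP libraries. The 10 striated muscle genes summed to 41.9 CPM in YFP 5 and to at most 20.1 CPM in the other libraries. Ckm alone made 40.8 CPM of the sum in YFP 5, where 5 of these 10 genes were at 0.

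Over 18 libraries the mean level of the members had a rho of 0.38 with the fibroblast level and -0.58 with the macrophage level. With the mean levels of other marker lists it was 0.49 (Schwann cells), 0.47 (adipocytes), 0.41 (pericytes), 0.41 (striated muscle), 0.32 (platelets), 0.30 (the serum response factor group), 0.29 (endothelium), 0.28 (neutrophils), 0.22 (genes reported in modulated smooth muscle cells, such as Spp1 and Lgals3, which macrophages also express) and -0.42 (leukocytes). None of these lists lay as near to the members as the other genes of contraction did, at 0.83, and no test was made of the differences. At 0 in some library were 5 of 6 Schwann, 7 of 8 adipocyte, 9 of 10 striated muscle and 7 of 8 platelet genes. Of the fibroblast genes 1 of 14 was, so the levels of those 4 lists rest more on low counts.

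In the other 5 pairs of subsets edgeR called no gene (0% of those tested), and hence no member. The pairs share libraries, so their values are given side by side. YFP against DP had a median log2 fold change of -1.67 over the members (range -3.72 to 0.13), against -0.09 over all genes, with 3 members and 1154 genes at an unadjusted p under 0.05. YFP against GFP had 0.45 (range -0.39 to 1.63), against 0.04, with 0 members and 1203 genes. YFP against DN had 0.62 (range -0.23 to 2.33), against 0.06, with 1 member and 461 genes. DP against DN had 2.31 (range 1.37 to 4.16), against 0.21, with 5 members and 464 genes. GFP against DN had 0.19 (range -0.17 to 0.70), against 0.04, with 0 members and 231 genes. Single libraries moved all 5 medians. With 1 library left out, YFP against DP ran between -2.61 (without YFP 1) and -0.18 (without DP 4), YFP against GFP between -0.05 (without YFP 1) and 0.67 (without YFP 3), and YFP against DN between 0.04 (without YFP 1) and 1.48 (without DN 1). DP against DN ran between 1.07 (without DP 4) and 3.20 (without DN 1), and GFP against DN between -0.14 (without DN 3) and 1.03 (without DN 1). Without DP 4, DP 5, DN 3 and DN 6 the medians were 0.37 for YFP against DP, 0.47 for YFP against GFP, 0.01 for YFP against DN, -0.63 for DP against DN and -0.57 for GFP against DN. DESeq2 called 133 genes and 2 members for YFP against DP, 186 genes and no member for YFP against GFP, 12 genes and no member for YFP against DN, 30 genes and 1 member for DP against DN, and no gene for GFP against DN.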

How the data were processed

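Per the labels' protocols, sorted cells went into Trizol LS, and cDNA from 11 cycles of SMART-seq v4 was made into Nextera XT libraries. Tools and build named in the submitters' processing notes are TopHat 1.4.1, HTSeq 0.7.1, SAMtools and mm10. The annotation and strand setting are not given in the sources used here. What the authors deposited are raw read counts, whole numbers for 23337 genes in each of 18 libraries. Reads carry no molecular identifiers, so counting intervals would cover counting error only.

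From these deposited counts, edgeR 4.0.16 (R 4.3.3) with filterByExpr, TMM and the robust quasi-likelihood test was fitted over all 18 libraries, with Benjamini-Hochberg adjustment over 17143 genes and a threshold of 0.05. CPM values are scaled by TMM. Correlations used log2(CPM + 1), with two-sided permutation tests of 100000 resamples in NumPy 2.4.6 and ranks from SciPy 1.17.1. The smallest p they can give is 1e-05, and p-values were adjusted over the 17129 genes outside each list. All 18 libraries were shuffled freely, whatever their subset or replicate number, so these p-values do not allow for likeness between same-numbered libraries. Both tests were checked on simulated data. Alternatives were DESeq2 1.42.0, limma 3.58.1 (voom), another scaling, no filter, another pseudocount (0.1), left-out libraries, sets of replicate numbers and a replicate block. Fits on fewer libraries kept the TMM factors of all 18, since edgeR otherwise changed its reference library from GFP 3 to YFP 6 in 10 of 18 omissions. Leaving out both DP 4 and DP 5, YFP 6 as the TMM reference and the correlation with detected genes were added after seeing the data.

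Groups are the sorted subsets as labelled. Within subsets, every pair of libraries differed beyond sampling noise, with a chi-square of at least 16.4 per degree of freedom. Pairing by replicate number was checked on deviations from subset means. Same-numbered libraries gave 0.226, 0.313, 0.164 and 0.416 for DP and GFP, 0.164, 0.169 and 0.342 for YFP and DP, and 0.57, 0.594 and 0.673 for GFP and DN, so by the rule used (every pair over 0.1) the numbers pair these subsets. YFP with GFP (0.51, 0.478, 0.514, 0.41 and -0.019) and YFP with DN (0.487, 0.449 and -0.0932) did not meet that rule. In both, the only value under 0.1 was that of YFP 6, the library with the lowest total, so whether the numbers pair these subsets is left undecided. DP and DN share 1 number (-0.221). The labels do not say what a number marks. The members and all gene lists were chosen with earlier results of these data known. All 10 members are named, with the 4 most abundant genes of the fibroblast, macrophage and other contractile lists, Myocd, Srf, Actb and Actg1, the 8 genes most like the members, and others where the text says they were picked, called or part of a sum. Chromosomes, exon lengths and overlaps are from the GENCODE annotation of mm10, and promoters from RefSeq (GRCm38.p6), which matched 7 of the 10 members.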

Additional observations from a re-analysis of the deposited data

Results flagged for a closer look

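Single libraries stood far from the rest of their subset in 7 members, by a gap to the nearest other library that exceeds Dixon's 95% critical value. Of 30 groups tested, 9 were flagged. The critical value flags about 1 in 20 groups of normally distributed values, which CPM without a log scale need not be. Only the members were examined, so the share flagged among all genes is not known. Groups of 3 were not examined, which leaves DN out. DP 4 was highest in Myh11 (345 CPM, next 68.9), Smtn (323 CPM, next 51.1), Lmod1 (26.0 CPM, next 3.82) and Actg2 (26.2 CPM, next 3.09). YFP 1 was highest in Myh11 (126 CPM, next 32.9) and Des (11.2 CPM, next 1.01). YFP 5 was highest in Cnn1 (101 CPM, next 23.5) and Mylk (139 CPM, next 18.3). GFP 2 was highest in Mylk (26.3 CPM, next 11.7). Acta2, Myl9 and Tagln gave no such library, and in each of them both DP 4 and DP 5 were high.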

How the results depend on the processing

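Of the 10 members, Myl9 was called higher in DP than in GFP, and the count of called genes in that pair was 92 with DESeq2 size factors, 62 without the filter on low counts and 123 with YFP 6 as the TMM reference. It was 0 genes and 0 members without DP 4, DP 5, DN 3 and DN 6 (YFP 6 kept), without both DP 4 and DP 5, and with the replicate block. DESeq2 gave 362 genes and 3 members, voom 3445 genes and 0 members, replicate numbers 1 and 2 gave 216 genes and 0 members, and numbers 3 to 6 gave 215 genes and 3 members. Leaving out 1 library gave 0 to 189 genes and 0 to 3 members.

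Log2 fold changes of DP against GFP that turned negative within numbers 1 and 2 were Acta2 -0.47, Myh11 -0.94, Tagln -0.75, Cnn1 -0.40, Myl9 -0.74, Mylk -1.35, Smtn -0.29, Lmod1 -0.61 and Actg2 -0.014. Without both DP 4 and DP 5 they were Myh11 -0.025, Cnn1 -0.27, Myl9 -0.14, Mylk -0.64 and Smtn -0.071, without those 4 libraries Myh11 -0.026, Cnn1 -0.27, Myl9 -0.14, Mylk -0.64 and Smtn -0.072, and with voom Cnn1 -0.27, Myl9 -0.033 and Mylk -0.25. With 1 library left out, Actg2 ranged between -0.30 (without DP 4) and 2.65 (without DP 5). Beyond the lost libraries or their low weights, the cause was not tested.

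In the pairs where edgeR called no gene, numbers 1 and 2 alone gave 1494 genes and 2 members for YFP against DP, 1487 genes and 1 member for YFP against GFP, 1918 genes and 1 member for YFP against DN, 2794 genes for DP against DN and 2395 genes for GFP against DN, with 1 to 2 libraries a subset. The lone YFP and DN libraries there are assumed to vary like the others. Numbers 3 to 6 gave 12 genes and 2 members for YFP against DP and 1 gene for DP against DN. DESeq2 gave 133 genes and 2 members for YFP against DP, 186 genes for YFP against GFP, 12 genes for YFP against DN, and 30 genes and 1 member for DP against DN. YFP against GFP also gave 9 genes without the filter, 41 without both DP 4 and DP 5, 462 with voom, and 0 to 11 with 1 library left out. The replicate block changed no call outside DP against GFP.

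Spearman's coefficient with the fibroblast level turned negative for Acta2 (-0.065), Cnn1 (-0.26), Myl9 (-0.076) and Mylk (-0.13) without both DP 4 and DP 5, for Cnn1 (-0.095) and Mylk (-0.068) without those 4 libraries, for Mylk (-0.31) and Lmod1 (-0.54) within numbers 1 and 2, and for Cnn1 without the filter (-0.0031) and with the smaller pseudocount (-0.042). With 1 library left out it was -0.16 to 0.12 for Cnn1, -0.0025 to 0.27 for Myl9, -0.069 to 0.20 for Mylk and -0.029 to 0.23 for Actg2. Spearman's coefficient with the macrophage level turned positive within numbers 1 and 2 for Acta2 (0.029), Myl9 (0.086), Mylk (0.14), Des (0.14) and Actg2 (0.086), and for Cnn1 within numbers 3 to 6 (0.021), with a range of -0.28 to 0.020 for Cnn1 with 1 library left out. Of the 5 members called with the macrophage level, 1 was called by Pearson's r, and Tagln was lost with DESeq2 size factors (adjusted permutation p = 0.109) and with YFP 6 as the TMM reference (adjusted permutation p = 0.0652). Slopes on the fibroblast level were called for 3 members with YFP 6 as the TMM reference, and on the macrophage level for 0 to 4 members with 1 library left out. Of 1453 values, 1262 were taken as unchanged. For coefficients and fold changes of single genes this means the same direction and, where tested, the same side of the threshold. Counts had to stay within 1.5 times. A median had to move by less than the SD of the members' log2 fold changes in that pair, whatever its sign. Among coefficients and fold changes of single genes, 53 values turned in sign. Depth limits Des, Lmod1 and Actg2, which had under 10 counts in several libraries, and all values of YFP 6. Calls of correlations were not computed within sets of numbers.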
